A study of Gossypium hirsutum with 3 samples.

Results

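Genes of RNA binding, splicing and RNA unwinding were followed in cotton fiber initials and whole ovules. Cotton (Gossypium hirsutum) fibers are single cells that grow out of the ovule epidermis. The 13 genes were taken from the table that the study drew up of genes differing between 1 dpa fiber (dpa, days post anthesis, counted from the opening of the flower) and ovules or later fiber. A gene was taken if its description named RNA binding, splicing, a helicase, a ribonucleoprotein, RNA polymerase, a pentatricopeptide protein, poly(A) or small nuclear RNA. Ribosomal proteins, initiation factors, zinc finger proteins, transcription factors and a primosomal helicase were left out. All 13 genes were found among the 11143 genes of the array, and all 13 could be tested. The table was made in part from the ratios described here, so the sizes and directions of these genes are given as a description and not as support for any statement about RNA binding genes.

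Each of the 3 arrays carried cDNA of fiber initials and cDNA of whole ovules, 1 in Cy3 (green) and the other in Cy5 (red), both from field grown plants at 1 dpa. The labels name no cultivar, and the study's methods name DES119 and ST4793R without saying which was hybridized. Fiber initials were shaken off frozen ovules pooled from many bolls, and whole ovules still carried their fiber initials, so that the ovule RNA holds both tissues. The labels call the material total RNA and give polyribosomal RNA isolation as the extraction. The replicates are described as harvests of different days, but the code SP2A stands on arrays 1 and 2, and p-values then measure the spread between arrays, which may in part be technical. In such bulk RNA, fewer cells of a type and less RNA per cell cannot be told apart.

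Which tissue an RNA came from was not settled. By the labels array 3 is the dye swap, with fiber in green on the others. By the codes stored with each spot array 2 is the dye swap, and the RNAs named SP2 are green on the others. Turned by the codes, the ratios of all genes had correlations of 0.58 between arrays 1 and 2, 0.52 between arrays 1 and 3 and 0.81 between arrays 2 and 3, across genes that are not independent replicates. Arrays 1 and 2, of 1 dye orientation by the labels, had a correlation of -0.58 in red over green. The values below are log2 ratios with the SP2 RNA as numerator. The SP2 RNA is fiber if the label of array 1 holds and ovule if the labels of arrays 2 and 3 hold, and then all signs turn with the same sizes. All 5 genes that the study put on the array as known in young fiber and that were set aside here as markers (GhFDH, GhACY, MYB109, MYB2 and GhRDL) had positive mean ratios, from 0.37 to 1.29, and 2 of them (MYB109 and GhFDH) were called higher. On array 1 GhACY had the other sign, at -0.73, and GhRDL was small, at 0.03. MYB2 was small on array 3, at 0.02. GhRDL, which had the mean of 0.37, had 4 saturated spot readings. Median background-subtracted signals were 249, 213 and 182 in green and 311, 270 and 131 in red on arrays 1, 2 and 3. No array probe sequence was held in the sources used here, so none is shown.

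Most messenger RNAs are bound by proteins from transcription to decay. RNA-binding proteins with an RNA recognition motif steer splicing, export, translation and turnover. DEAD/DEAH box helicases use ATP to unwind RNA or to strip proteins from it, in splicing, ribosome assembly and translation. Pentatricopeptide repeat proteins, a very large family in plants, bind single RNAs in mitochondria and chloroplasts and are needed for their editing, splicing and stability. SR proteins, rich in arginine and serine, help to choose splice sites.

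The 13 genes went in both directions. Both pentatricopeptide repeat genes and all 3 helicase genes were higher in the SP2 RNA, and the 4 RNA-binding protein genes were divided, with 1 called higher, 1 called lower and 2 not called. Of the 3 genes with splicing in their descriptions, 1 was called lower and 2 were not called, and the RNA polymerase gene was called lower. A gene was called where limma, fitted over all 11081 genes tested, gave an adjusted p under 0.05. By this rule 6 of the 13 genes were called higher in the SP2 RNA and 3 were called lower, beside 3.95% and 8.31% of all genes tested. With the SP1 RNA as numerator the counts change places. The study itself asked for a 2 fold difference and a p of 0.05 or less before adjustment, from an analysis of variance over 6 arrays. That analysis was not repeated here. With the same limits set on the limma p of these 3 arrays, 2 genes (Contig304 and TMIRS_214_G09.F) were higher and 1 (Contig6743) was lower. Of all genes 1.73% and 4.73% were. The ratios of 7 genes were positive and those of 5 negative on all arrays, beside 20.9% and 23.1% of all genes, so that 12 had 1 sign throughout, as did 44.0% of all genes tested. Since the genes were tabulated for their size in this contrast among others, nothing is read from these shares. The median ratio of the 13 genes was 0.76 and that of all genes tested 0.04. Single genes had means from -1.34 to 1.66.

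**Figure D1:**
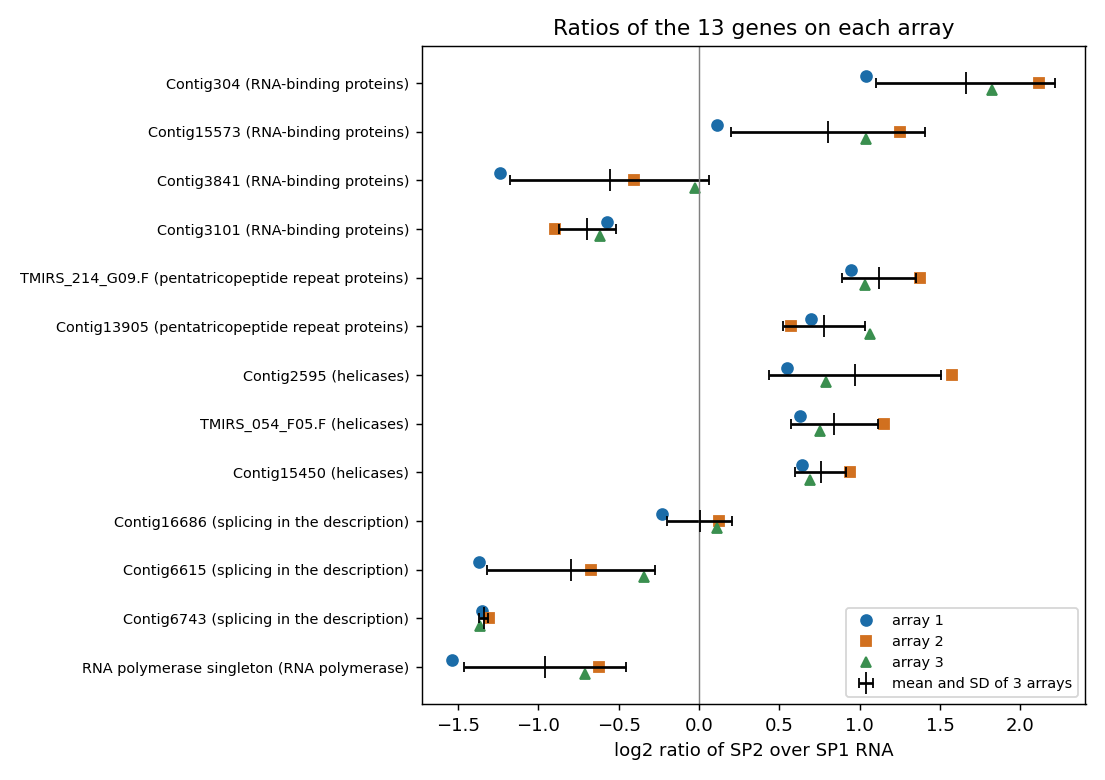
Log2 ratio of SP2 over SP1 RNA (horizontal axis) for each of the 13 genes, grouped by description. Symbols are arrays 1, 2 and 3, and the bar is the mean with its SD (n = 3 arrays). The pentatricopeptide repeat and helicase genes lie to the right of 0 on every array, and Contig6743 shows the least spread, at -1.35, -1.31 and -1.36.

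Among the RNA-binding protein genes, Contig304, described as a putative RNA-binding protein, had the largest ratio of the 13 genes. Its normalized signals, which are background-corrected and dye-normalized intensities on the scale of each array, were 678, 1239 and 1013 in the SP2 RNA and 330, 286 and 286 in the SP1 RNA on arrays 1, 2 and 3. On each array the SP2 signal was above the SP1 signal. The ratios were 1.04, 2.12 and 1.83, with a mean of 1.66 ± 0.56 (SD, n = 3; 3.16-fold), and all 4 probes were positive on all arrays. Array 1 gave the smallest ratio of the 3 arrays for this gene.

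Contig15573, also described as an RNA-binding protein but on a weak database match, differed between arrays. Its signals were 864, 1270 and 851 in the SP2 RNA and 799, 535 and 414 in the SP1 RNA, and its ratios were 0.11, 1.25 and 1.04 (mean 0.80 ± 0.60, SD, n = 3). Array 1 showed almost no difference, and the gene was not called. The small positive value of array 1 rested on 1 probe at 0.98, since the other 3 probes had -0.10, -0.36 and -0.07 there. All 4 probes were positive on arrays 2 and 3.

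Contig3101 and Contig3841, with strong matches to RNA-binding proteins of Arabidopsis and rice, had negative mean ratios. Contig3101 had signals of 927, 626 and 549 in the SP2 RNA and 1377, 1167 and 842 in the SP1 RNA. Its ratios of -0.57, -0.90 and -0.62 (mean -0.70 ± 0.18, SD, n = 3) put it among the 3 genes called lower, and its 4 probes were negative on all arrays. The probes were not equal in size, with means from -1.04 to -0.26. Contig3841 had ratios of -1.24, -0.41 and -0.02 (mean -0.56 ± 0.62) and was not called. On array 1 its signal was 699 in the SP2 RNA against 1649 in the SP1 RNA, whereas on array 3 the signals of 944 and 959 were close to each other.

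Of the pentatricopeptide repeat genes, TMIRS_214_G09.F, a single cDNA sequence, had signals of 2338, 2360 and 1835 in the SP2 RNA and of 1216, 908 and 896 in the SP1 RNA. Within each array the SP2 signal was the higher. Its ratios were 0.94, 1.38 and 1.03, with a mean of 1.12 ± 0.23 (SD, n = 3; 2.17-fold). Its 3 probes gave nearly the same mean, from 1.08 to 1.19. Contig13905, measured with 1 probe in 3 spots, had signals of 5059, 4095 and 3205 in the SP2 RNA and 3121, 2757 and 1531 in the SP1 RNA. Its ratios were 0.70, 0.57 and 1.07 (mean 0.78 ± 0.26, SD, n = 3), and the 3 spots of each array lay close together, from 1.04 to 1.08 on array 3 for example. The SP2 signal was above the SP1 signal of the same array on all 3 arrays. Both genes were called higher.

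The 3 helicase genes were all called higher. TMIRS_054_F05.F, similar to a rice RNA helicase, had signals of 1975, 2562 and 1557 in the SP2 RNA and 1280, 1156 and 924 in the SP1 RNA. Its ratios were 0.63, 1.15 and 0.75 (mean 0.84 ± 0.27, SD, n = 3). Contig15450, similar to a DEAD/DEAH box RNA helicase, had signals of 3209, 2811 and 1880 against 2060, 1466 and 1167, and ratios of 0.64, 0.94 and 0.69 (mean 0.76 ± 0.16). Because signals are on each array's own scale, its SP2 signal of array 3 was below its SP1 signal of array 1, although SP2 was higher within each array. The SD of the DEAD/DEAH box gene was the smallest among the genes called higher, and its 4 probes were positive on all arrays.

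The third of them, Contig2595, was described as a RecQ helicase on a match to a fungal protein too weak to name the gene. RecQ helicases unwind DNA and not RNA. Its signals were 729, 970 and 825 in the SP2 RNA and 498, 325 and 478 in the SP1 RNA, and its ratios were 0.55, 1.58 and 0.79 (mean 0.97 ± 0.54, SD, n = 3). On array 1 its 4 probes ranged from -0.07 to 1.25. In the SP1 RNA the lowest share of its probes above background on an array was 0.75. A singleton described as a primosomal helicase, a bacterial protein of DNA replication, was left out by the rule. It was lower in the SP2 RNA, with ratios of -3.55, -2.64 and -3.12, so the common direction of the 3 helicase genes depends on leaving it out.

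**Figure D2:**
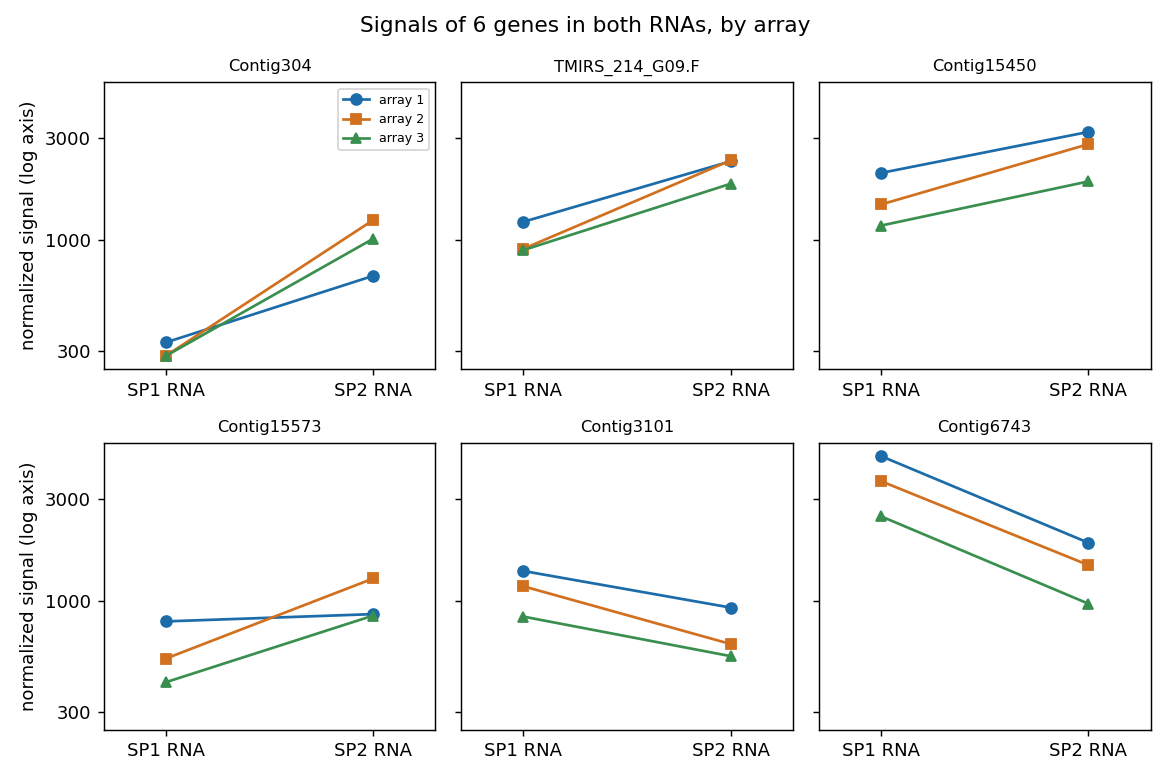
Normalized signal (log axis) of 6 of the genes in the SP1 RNA and the SP2 RNA, with 1 line per array; the signals of an array are on its own scale. The lines rise on all arrays for Contig304, TMIRS_214_G09.F and Contig15450, are nearly flat on array 1 for Contig15573 (799 to 864), and fall in parallel for Contig6743.

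Of the genes with splicing in their descriptions, only Contig6743 was described as a splicing factor, an arginine and serine rich protein of the mouse, and its match was weak. It was lower in the SP2 RNA by the most even ratios of the 13 genes. Its signals were 1869, 1469 and 968 in the SP2 RNA and 4764, 3634 and 2486 in the SP1 RNA. The ratios of -1.35, -1.31 and -1.36 had a mean of -1.34 ± 0.028 (SD, n = 3; 2.53-fold lower), and the means of its 4 probes lay between -1.41 and -1.26.

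The other genes in this group were not described as splicing factors. Contig6615 was described as an expressed protein with alternative splicing, which is a property of its own transcript. It had signals of 585, 754 and 475 in the SP2 RNA and 1510, 1202 and 602 in the SP1 RNA, with ratios of -1.37, -0.67 and -0.34 (mean -0.80 ± 0.52, SD, n = 3). It was not called, although its 4 probes were negative on all arrays. Contig16686 was described as like lysine ketoglutarate reductase trans-splicing related 1, a name that holds that of an enzyme of lysine breakdown. It had signals of 187, 212 and 147 in the SP2 RNA against 219, 194 and 136 in the SP1 RNA, and its ratios of -0.23, 0.13 and 0.11 had a mean near 0 (SD 0.20, n = 3). It was the 1 gene whose sign differed between arrays.

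The gene described as a DNA-dependent RNA polymerase, the enzyme that transcribes genes, was a singleton with a match that was again weak. It had 1 probe in 3 spots. Its signals were 602, 589 and 309 in the SP2 RNA and 1746, 908 and 505 in the SP1 RNA, and its ratios were -1.54, -0.62 and -0.71 (mean -0.96 ± 0.50, SD, n = 3). It was called lower. The 3 spots agreed on array 1, from -1.61 to -1.48, so that the larger size on that array was not a matter of a single spot.

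Of the genes called lower, then, Contig3101 alone had a firm description as an RNA-binding protein. The genes called higher with more than a weak match were Contig304, the pentatricopeptide repeat genes and the RNA helicase genes. No limit between a weak and a strong match is given here, so this division is a reading of the annotation.

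Array 1 stood apart from arrays 2 and 3 for these genes. It gave the lowest ratio of the 3 arrays for 10 of the 13 genes and the highest for 1, whereas among all genes tested array 1 was lowest for 42.7% and highest for 42.1%. This was not particular to the 13 genes, whose median ratios on arrays 1, 2 and 3 were 0.11, 0.57 and 0.69. Medians were 0.52, 0.98 and 1.19 in the translation factors given below. They were 0.61, 0.99 and 0.94 in the other genes of RNA metabolism. Array 2, on which the dyes were exchanged by the codes, gave the highest ratio for 9 of the 13 genes, against 28.5% of all genes. The ratios of the 13 genes ran from -1.54 to 1.04 on array 1, from -1.31 to 2.12 on array 2 and from -1.36 to 1.83 on array 3. Whether dye, array or harvest sets these shifts cannot be told apart, since each array has its own SP1 RNA.

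The probes of a gene measured the same labelled RNA on the same array, so they are not replicates. Of the 11 genes with more than 1 probe, 10 had all probe means of 1 sign, against 59.0% of the 10268 such genes tested. The genes were tabulated for their size, with a median absolute ratio of 0.80 in the 13 genes against 0.17 in all. Probes far from 0 tend to share a sign, so nothing is read from this share. The exception was Contig16686. The range between the lowest and the highest probe mean had a median of 0.33 in these genes and of 0.29 in all. It was smallest for TMIRS_214_G09.F, at 0.12, and largest for Contig2595, at 0.98.

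**Figure D3:**
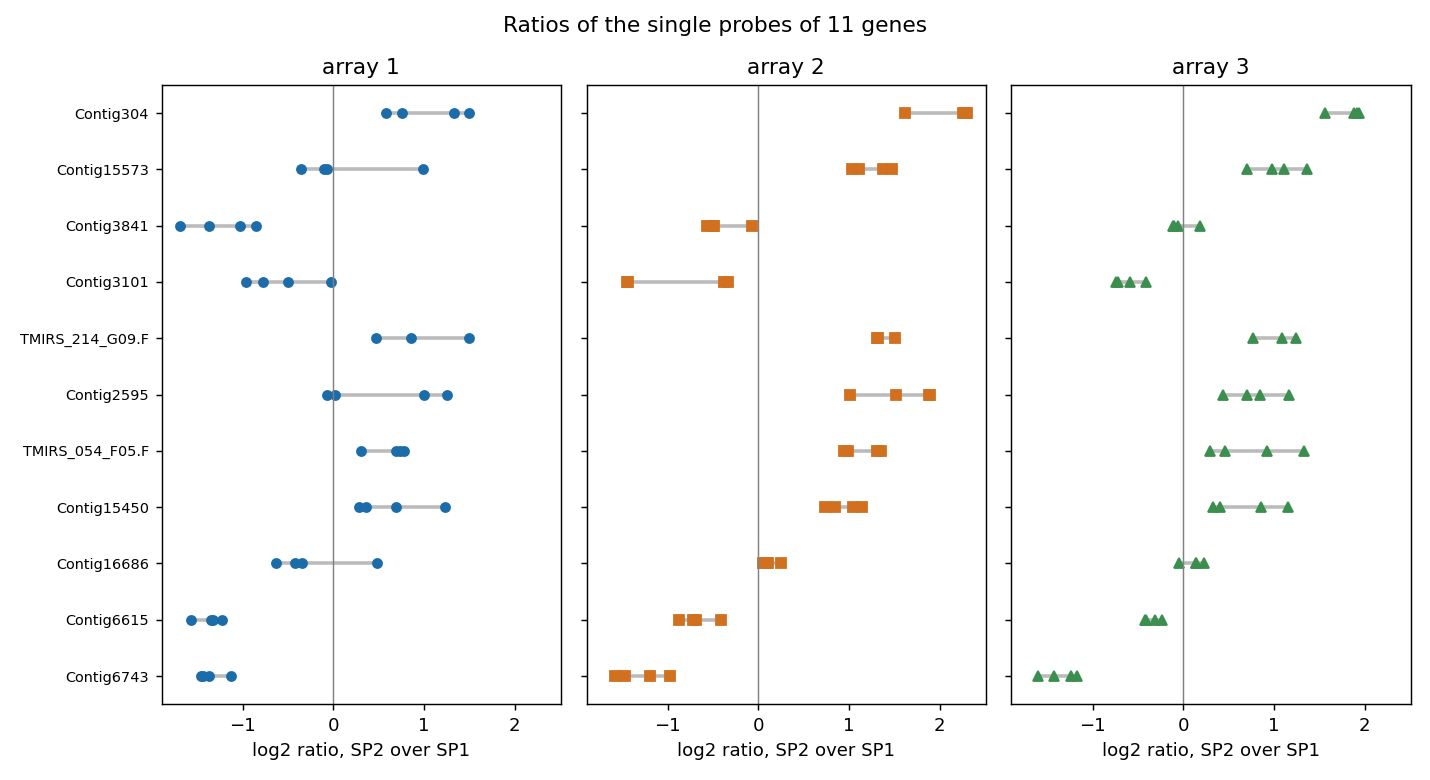
Log2 ratio of SP2 over SP1 RNA for every probe of the 11 genes with several probes, with arrays 1, 2 and 3 in separate panels; each point is a probe and the grey line is the range of a gene. The probes of Contig15573 and Contig2595 straddle 0 on array 1 and all lie to the right of 0 on arrays 2 and 3.

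On array 1 the ratio also moved with the number that a probe carries in its name. The probe with the highest number had a higher ratio than the probe with the lowest number in 10 of the 11 genes on array 1, with a median difference of 0.91, but in 4 genes on array 2 and in 5 on array 3. Probes 1 to 4 of Contig304 had 0.58, 0.76, 1.32 and 1.49 on array 1 against 2.31, 1.61, 2.29 and 2.25 on array 2. Those of Contig2595 had -0.07, 0.02, 0.99 and 1.25 on array 1, and those of Contig3841 had -1.69, -1.37, -1.03 and -0.86. The 13 genes were not alone in this. Of the 1288 genes with a mean signal at or above the median of these genes, 81.5% had the higher ratio at the highest numbered probe on array 1, against 33.8% on array 2 and 27.9% on array 3. Over all genes with several probes the share was 46.8% on array 1. The pattern was noticed after the values were seen, and what the probe numbers stand for is not given in the sources used here. Whether they follow the position of a probe along its transcript could not be checked. In the 1288 genes the median difference, highest minus lowest numbered probe, was 0.53 on array 1, -0.19 on array 2 and -0.30 on array 3. The size of a ratio thus depends on which probes of a gene are averaged, with the opposite direction on arrays 2 and 3.

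The choice of probes changed the calls. With the highest numbered probe of each gene alone, 6 of the 13 genes were called higher and 2 lower, beside 5.50% and 10.8% of all genes, and with the lowest numbered probe alone 0 were called higher and 1 lower (5 and 4 by limma at an unadjusted p under 0.05, and 0 of the 13 by the ordinary test after adjustment). That 1 gene was Contig6743, with -1.29. With the lowest numbered probes 0.226% of all genes were called higher and 1.28% lower. The correlation across genes between arrays 1 and 3 was 0.61 with the highest and 0.23 with the lowest numbered probes, and that between arrays 2 and 3 was 0.79 and 0.73.

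Other genes of RNA metabolism in the study's table were mostly on the higher side. Of 6 such genes, 4 were called higher and 0 lower, with a median of 0.84, beside 3.95% higher and 8.31% lower among all genes. Fibrillarin Contig17392, which methylates ribosomal RNA in the nucleolus, had ratios of 1.00, 1.18 and 1.17 (mean 1.12 ± 0.10, SD, n = 3). TMIRS_195_B05.F, similar to a protein that binds the U3 small nucleolar RNA, had 0.89, 0.74 and 0.82, and Contig525, with an RNA recognition motif, had 0.90, 0.89 and 0.79. Contig14343, similar to the exosome subunit RRP41 of RNA decay, had 0.34, 1.10 and 1.06, again with array 1 lowest. The genes not called were Contig14140, similar to an RNase L inhibitor (mean 1.03 ± 0.76), and the nucleolar protein gene Contig3157 (mean -0.44 ± 0.10).

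Translation factors had a similar distribution. Of 8 genes, 7 were called higher and 0 lower, beside the same 3.95% and 8.31% of all genes, with a median of 0.96 and means from -0.44 to 1.27. These genes come from the same table, so their counts are a description as well. No difference between the lists was tested. The 13 genes included called genes in both directions, and neither of the other lists held a gene called lower.

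**Figure D4:**
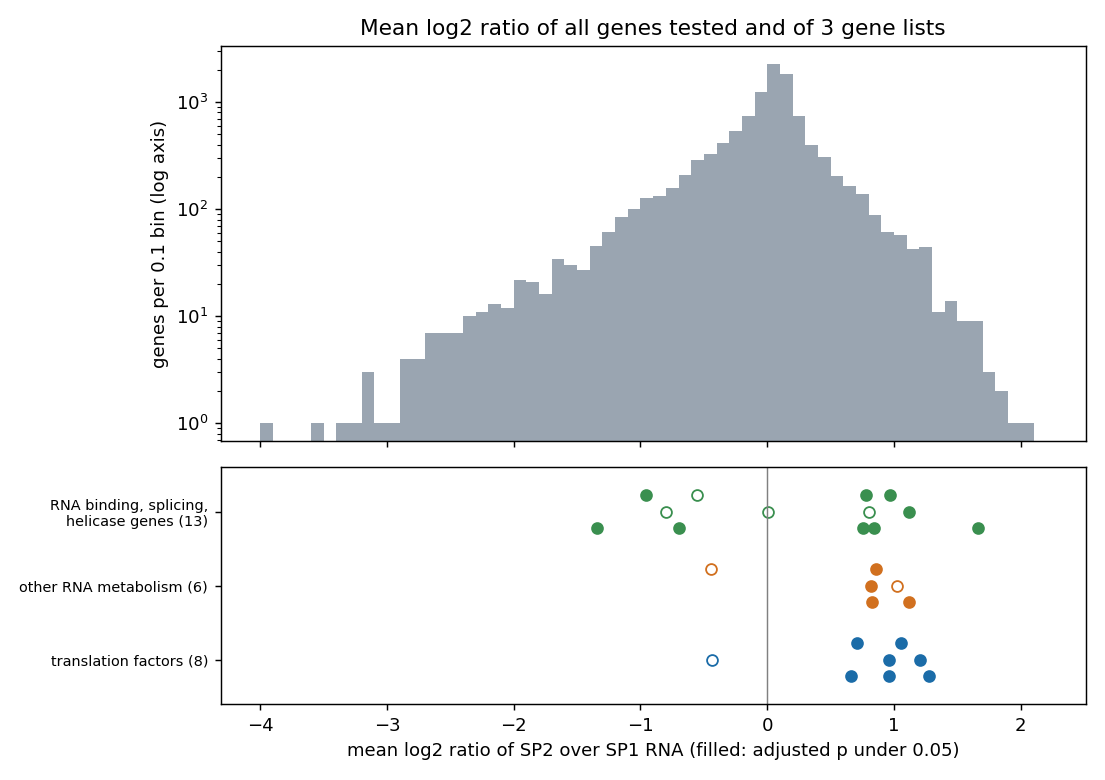
Top, mean log2 ratio of SP2 over SP1 RNA of all 11081 genes tested, as the number of genes per bin (log axis). Bottom, the means of the 13 genes, of 6 other genes of RNA metabolism and of 8 translation factors, filled where the adjusted p was under 0.05 and spread vertically for visibility; the 13 genes lie on both sides of 0, with a gap between 0 and 0.76.

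The calls of single genes were sensitive to the arrays and to normalization. By the labels, which turn array 1 against the other arrays, limma called 0 of the 13 genes in either direction and 0 of all genes tested. At an unadjusted p under 0.05 these counts were 0 and 538, and the ordinary test without moderation called 0 and 0 after adjustment. With median centring in place of loess, 0 genes were called higher and 1 lower, beside 0.722% and 2.25% of all genes. With the deposited ratios 1 was called higher and 0 lower, beside 0.812% and 1.41%. Fewer genes were thus called on the whole array too, and with median centring the means of the 7 genes positive on all arrays were not smaller (1.74 for Contig304), whereas that of Contig6743 was -1.14. The median of the 13 genes was then 0.90. At an unadjusted p under 0.05, limma had 7 higher and 3 lower with median centring and 7 and 1 with the deposited ratios, and the ordinary test called 0 of the 13 in both after adjustment. Without array 2 the genes called higher were 3 and those called lower 3, beside 2.00% and 6.97% of all genes, and the helicase genes TMIRS_054_F05.F, Contig15450 and Contig2595 were no longer called although they stayed positive, at 0.69, 0.66 and 0.67. Contig3101 was then not called either (-0.59), while Contig6615 was called lower (-0.86). Without array 3, 4 genes were called higher and 4 lower, beside 2.71% and 9.11%. Contig13905 (0.63), Contig15450 (0.79) and Contig3101 (-0.73) were not called, and Contig3841 (-0.82) and Contig6615 (-1.02) were called lower. Without array 1, 7 were called higher and 3 lower, beside 10.1% and 7.92%, and Contig15573 was then called higher (1.14). Contig304, TMIRS_214_G09.F, Contig6743 and the RNA polymerase singleton kept their limma calls whichever array was left out. In each of these fits on 2 arrays the ordinary test called 0 of the 13 genes after adjustment. With arrays 1 and 2, which share the code SP2A, averaged to 1 replicate, 7 genes were called higher and 4 lower, beside 8.68% and 11.7% of all genes. These calls, on 2 replicates, depend on the moderation of limma. The ordinary test there called 0 of the 13 after adjustment, and 3 higher and 1 lower at an unadjusted p under 0.05. With a normexp offset of 10 the limma counts were again 7 and 4, beside 4.98% and 10.4%. Both settings called Contig15573 higher (0.86 and 0.85) and Contig6615 lower (-0.68 and -0.84), so that the calls of these genes depend on the setting.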

How the data were processed

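The deposited scanner files hold mean spot and background intensity in green and red, as quantified by Agilent Feature Extraction (version not given in the sources used here), without background subtraction or dye normalization, and a deposited flag of other kind, 0 or 1, for green spots well above background. The series table deposited by the authors holds log2 of background-subtracted red over green, which the scanner files gave at 42034 of 42034 gene spots (tolerance 1e-08). The authors' comparison columns in the study's table were not used.

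Background was corrected by normexp (limma 3.58.1, R 4.3.3, offset 50) and ratios were normalized by loess within arrays. The printed signals include that offset. The spots of a probe, and then the probes of a gene, were averaged. Of 40372 probes, 38713 were kept, being above background in either channel on at least 2 arrays (red over the negative controls by 2.6 robust SD). Spots at 65000 or more count as saturated, and none of the 13 genes had one. Ratios of 3 arrays were tested against 0 with lmFit and eBayes, Benjamini-Hochberg adjusted over 11081 genes. Only the gene fit was tested on simulated ratios, and not the normalization, the orientation or the probe steps. The genes, lists and alternatives were chosen with earlier results of these data known. All 13 genes, the other lists in part and the genes on which a result turns are named.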

Additional observations from a re-analysis of the deposited data

How the results depend on the processing

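With all probes and the sample codes, 6 genes were called higher and 3 lower, with a median of 0.76. The deposited ratios gave 1, 0 and 1.11 (all genes 0.25). Median centring called 0 higher and 1 lower. The ordinary test without moderation called 0 and 0 (all genes 1 and 1), with 5 and 2 of these genes at an unadjusted p under 0.05. The study's limits of at least 2 fold and a p of at most 0.05, set on the limma p before adjustment, gave 2 and 1. Orientation by the labels gave 0, 0 and a median of -0.31, with 10 ratios of the other sign. The numerator was then fiber by the labels and not the SP2 RNA. Array 1 kept its sign while arrays 2 and 3 were turned. These were Contig304 (-0.97), TMIRS_214_G09.F (-0.49), Contig2595 (-0.60), TMIRS_054_F05.F (-0.42), Contig13905 (-0.31), Contig15573 (-0.72), Contig15450 (-0.33), Contig16686 (-0.16), Contig3101 (0.32) and Contig6743 (0.44). Contig16686 also turned with median centring (-0.014), an offset of 10 (-0.014), the median over probes (-0.049), and the highest numbered probe (-0.074). The lowest numbered probe gave 0 higher and 1 lower, both probe choices being added after the data were seen. Leaving out 1 array gave 3 to 7 higher and 3 to 4 lower genes (all genes 222 to 1121 and 772 to 1010) and medians from 0.58 to 0.81, and Contig16686 had -0.058 without array 2, -0.052 without array 3 and 0.12 without array 1. Both RNAs shared each array, so the ratios tested against 0 were already paired by array. The causes were not tested. The number of arrays limits precision.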
